A study of Caenorhabditis elegans with 6 samples.

Results

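The glutathione S-transferase and UDP-glycosyltransferase genes of the nematode *C. elegans* were examined in poly(A) RNA-seq of L1 larvae. They were chosen by name: every gene whose WormBase symbol is *gst-* or *ugt-* with a number, or begins with *gsto-*, which gave 114 of the 46904 genes counted. There were 44 *gst* genes, 67 *ugt* genes and 3 *gsto* genes, all of them protein-coding. The larvae were untreated, were grown on plates with *E. coli*, and were sequenced as whole animals. The strains were *csb-1(ok2335)*, line RB1801, *xpc-1(tm3886)*, line TG2226, and wild-type N2, with 2 libraries each and 1 line for each mutation. The series addresses nucleotide excision repair: *csb-1* acts in its transcription-coupled branch and *xpc-1* in its global branch. Values of a strain are given for replicate 1 and then replicate 2.

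Glutathione S-transferases join the tripeptide glutathione to reactive, electrophilic compounds, and the omega class, named *gsto*, also carries out thiol transfer and reduction reactions. UDP-glycosyltransferases attach a sugar from a UDP-sugar to small lipophilic molecules, which in nematodes is often glucose. Both act in the conjugation phase of detoxification, which in *C. elegans* takes place largely in the intestine, and the products leave cells through ABC transporters. The factor SKN-1, the worm relative of mammalian Nrf proteins, activates many of these genes during oxidative or xenobiotic stress.

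The families differed in where their genes lie. Chromosome II carried 25 of the 44 *gst* genes, chromosome V carried 42 of the 67 *ugt* genes, and all 3 *gsto* genes were on chromosome III. Genes of 1 family with at most 10 kb between neighbours formed clusters, and 25 *gst* genes lay in 4 clusters and 37 *ugt* genes in 11. The median summed exon length was 750 bases for *gst* genes, 1687 bases for *ugt* genes and 929 bases for *gsto* genes. Reads were assigned to genes without use of strand, and 16 of the 114 genes overlapped another protein-coding gene. Among those named here these were *gst-1* (with *lin-12*), *gst-9* (with *msp-33*), *gst-25* (with *spe-15*), *gsto-3* (with *gei-4*), *gsto-1* (with *kle-2*), *ugt-50* (with *nhr-26*), *ugt-47* (with *srd-49*), and *ugt-37* (with *ugt-40*), while *ugt-22* overlapped 18 annotated non-coding genes. Only reads of high mapping quality had been kept, so genes with a near-identical copy may have lost reads. The similarity of these genes to each other was not measured.

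The libraries held between 41643033 and 48371365 reads on genes. Replicates ranked the 114 genes alike in *xpc-1* (Spearman's rho across genes 0.991) and in wild-type (0.994), but less so in *csb-1* (0.654), and genes are not independent replicates. The 2 *csb-1* libraries stood apart from each other over all genes too (0.745, against 0.977 in *xpc-1* and 0.980 in wild-type). Ribosomal protein genes took 4.65% and 23.37% of reads in *csb-1*, 7.70% and 8.23% in *xpc-1*, and 10.82% and 11.03% in wild-type. Transcripts of the *xpc-1* gene were at 18.0 and 17.9 CPM (counts scaled to library depth with TMM factors) in *xpc-1* and 43.5 and 40.1 CPM in wild-type. The *csb-1* gene was at 17.5 and 8.04 CPM in *csb-1* and 20.5 and 22.9 CPM in wild-type. Nothing in the labels says that replicates were separate cultures, so p-values measure the spread between these libraries only. Because *csb-1* replicates differed so much, every *csb-1* value is given by library.

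Most of these genes were expressed in L1 larvae. At least 1 CPM in both libraries of a strain was reached by 90 of the 114 genes in *csb-1*, 96 in *xpc-1* and 102 in wild-type. Over all protein-coding genes the share was 57.1% in *csb-1*, 66.1% in *xpc-1* and 67.1% in wild-type. Among *gst* genes the counts were 34 in *csb-1*, 37 in *xpc-1* and 39 in wild-type, of 44. The *ugt* counts were 54 in *csb-1*, 56 in *xpc-1* and 60 in wild-type, of 67. All 3 *gsto* genes reached this level in *xpc-1* and in wild-type, and *gsto-2* missed it in *csb-1*. There were 89 genes expressed in every strain, and 12 reached the level in none: *gst-17*, *gst-18*, *gst-32*, *gst-34*, *gst-41*, *ugt-3*, *ugt-27*, *ugt-30*, *ugt-35*, *ugt-42*, *ugt-43* and *ugt-67*. Every one of the 114 genes had reads in all 6 libraries, down to 2 reads, of *ugt-35* in *csb-1* replicate 2 and of *gst-17* and *ugt-42* in *csb-1* replicate 1.

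Levels of different genes were compared per exon length, as TPM (counts per exon length, scaled to the same total in each library), in wild-type. A few *gst* genes were far above the rest. *gst-5* (chromosome II, 10950350 to 10951604) had 1196 ± 63.1 TPM, *gst-7* had 679 ± 84.3 TPM and *gst-1*, a pi-class enzyme, had 552 ± 14.1 TPM (SD, n = 2). The order of these genes was clear, since the libraries of 1 did not overlap those of the next. *gst-39* followed at 217 ± 11.1 TPM, *gst-35* at 149 ± 1.68 TPM and *gst-4* at 138 ± 15.1 TPM (SD, n = 2). *gst-4* is the SKN-1 target most used as a reporter of oxidative stress. *gst-24* was at 119.9 ± 4.4 TPM, *gst-10*, which conjugates the lipid peroxidation product 4-hydroxynonenal, at 110.1 ± 8.89 TPM, *gst-13* at 109 ± 24.2 TPM and *gst-27* at 105 ± 6.26 TPM (SD, n = 2). Each neighbouring pair of genes between *gst-35* and *gst-27* in this order had overlapping ranges of 1 SD around the mean. The median *gst* gene was at 37.8 TPM in wild-type, against 10.2 TPM for *ugt* genes and 16 TPM for *gsto* genes.

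No *ugt* gene stood out in the same way. The highest in wild-type were *ugt-13* at 83.2 ± 1.8 TPM, *ugt-62* at 80.2 ± 7.89 TPM and *ugt-46* at 77.2 ± 3.45 TPM (SD, n = 2). The ranges of 1 SD of *ugt-62* overlapped those of *ugt-13* and *ugt-46*, while *ugt-13* lay above *ugt-46* in both libraries. *ugt-22* at 66.4 ± 6.07 TPM and *ugt-16* at 64.9 ± 5.82 TPM (SD, n = 2) came next and did not differ beyond their spread. Among omega-class genes *gsto-3* had 31.9 ± 3.19 TPM, about the sum of *gsto-2* at 16 ± 1.47 TPM and *gsto-1* at 15.8 ± 0.447 TPM (SD, n = 2), and *gsto-2* and *gsto-1* overlapped. In wild-type *gst-5* alone took 26.4% and 27.5% of the summed CPM of its family, whereas the highest *ugt* gene, *ugt-46*, took 8.11% and 9.03%.

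Neighbours within a cluster had very unequal levels. The cluster on chromosome II from 4879885 to 4893573 held *gst-6*, *gst-7*, *gst-8* and *gst-9*, which ranged from 8.26 TPM for *gst-9* to 679 TPM for *gst-7* in wild-type. A cluster of 9 *gst* genes on chromosome II from 15163808 to 15185385 ranged from 1.08 TPM for *gst-32* to 217 TPM for *gst-39*. Another 9 *gst* genes, from 13608154 to 13630887 on the same chromosome, ranged from 1.24 TPM for *gst-18* to 119.9 TPM for *gst-24*. The largest *ugt* cluster, 8 genes on chromosome V from 4887187 to 4911399, ranged from 0.693 TPM for *ugt-67* to 83.2 TPM for *ugt-13*. Levels thus ranged widely within each of these 4 clusters. Whether neighbours were more alike than other genes of their family was not tested.

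Summed over a family, *gst* transcripts were less abundant in both mutant strains. The *gst* sum was 840.2 and 1538 CPM in *csb-1*, 1385 and 1502 CPM in *xpc-1*, and 2389 and 2481 CPM in wild-type. All 4 mutant libraries were below both wild-type libraries, also when CPM were scaled by library size only and in TPM. Mean sums were 0.488 of wild-type in *csb-1* and 0.593 of wild-type in *xpc-1*.

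For *ugt* genes the mutant libraries did not all lie on 1 side. Their sum was 761 and 2123 CPM in *csb-1*, 1110.0 and 1103 CPM in *xpc-1*, and 1485 and 1428 CPM in wild-type. The *xpc-1* libraries were below wild-type, with a mean sum 0.760 of wild-type, whereas 1 *csb-1* library was below and the other above wild-type, with a mean sum 0.990 of wild-type. The high value of *csb-1* replicate 2 depended on the scale: by library size only its *ugt* sum was 1529 CPM, against 1595 and 1487 CPM in wild-type. In TPM it was 886, against 1140.4 and 1087 in wild-type, so the direction of this library flipped. The *gsto* sum was 20.2 and 36.6 CPM in *csb-1*, 24.6 and 30.0 CPM in *xpc-1*, and 41.3 and 46.7 CPM in wild-type, with every mutant library below wild-type. The sum over all 114 genes was 0.1757% and 0.2663% of reads in *csb-1*, 0.2719% and 0.2798% in *xpc-1*, and 0.4205% and 0.4117% in wild-type. These are whole animals, in which fewer cells of a type and less RNA per cell cannot be told apart.

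**Figure D1:**
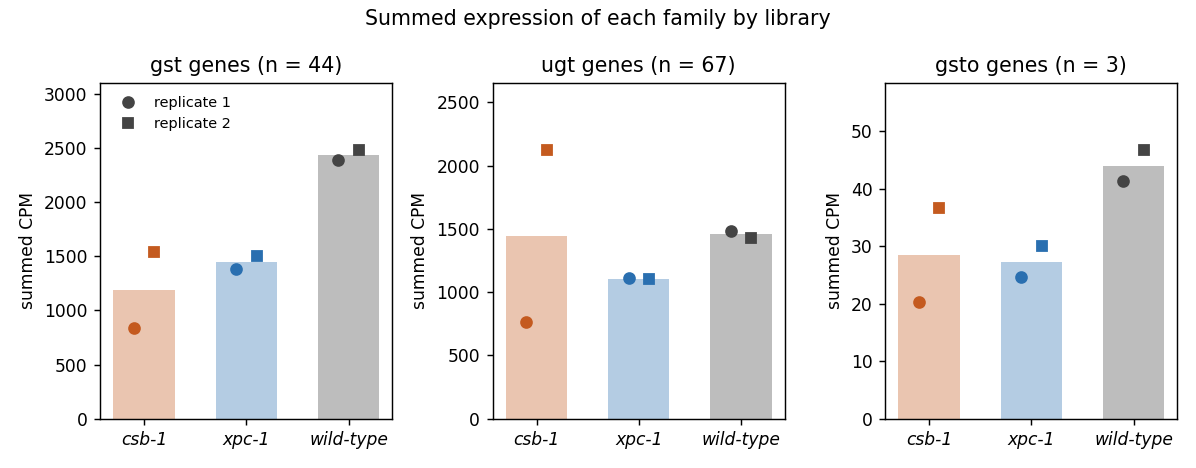
Summed CPM (y axis, TMM-scaled, from 0) of the 44 *gst*, 67 *ugt* and 3 *gsto* genes in *csb-1*, *xpc-1* and wild-type. Bars are strain means and the circle and square are the 2 libraries. For *gst* genes all 4 mutant libraries, at 840.2 to 1538 CPM, lie below both wild-type libraries, whereas for *ugt* genes the *csb-1* libraries, at 761 and 2123 CPM, lie on opposite sides of wild-type.

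In *xpc-1* larvae, transferase genes that differed from wild-type were mostly lower. With edgeR's quasi-likelihood test on the 2 *xpc-1* and 2 wild-type libraries (Benjamini-Hochberg adjusted p under 0.05 over 17924 genes), the test called 37.1% of all genes, of which the rising ones made up 20.0% and the falling ones 17.1% of genes tested. Of the 44 *gst* genes, 26 fell (59.1%), none rose and 18 did not pass the test. Of the 67 *ugt* genes, 32 fell (47.8%), 6 rose (8.96%) and 29 did not pass, and of the 3 *gsto* genes 2 fell. All 114 genes passed the count filter. The median log2 fold change was -0.68 for *gst* genes, -0.47 for *ugt* genes and -1.07 for *gsto* genes, against -0.02 over all genes tested. Both *xpc-1* libraries were below both wild-type libraries for 37 *gst*, 44 *ugt* and 3 *gsto* genes, where the share over all genes was 36.0%. They were above for 1 *gst* and 11 *ugt* genes, where the share over all genes was 33.3%.

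These calls rest on the spread within *xpc-1* and wild-type. When all 6 libraries shared 1 fit, edgeR called 0 of 18421 genes at an adjusted p under 0.05 (267 at an unadjusted p under 0.05, among them 7 *gst* and 3 *ugt* genes). DESeq2 on the 4 libraries called 28 *gst*, 29 *ugt* and 2 *gsto* genes lower and 6 *ugt* genes higher. Over all 17924 genes tested it called 2968 lower and 3550 higher. The biological coefficient of variation was 0.145 with the 4 libraries and 0.617 with all 6.

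The abundant *gst* genes were among those that fell. *gst-5* had 310.2 and 365 CPM in *xpc-1*, against 629.8 and 682 CPM in wild-type, a log2 fold change of -0.94 (SE 0.11, adjusted p = 0.000294, edgeR). *gst-7* had 191 and 246 CPM in *xpc-1*, against 333 and 399.5 CPM in wild-type (log2 fold change -0.73, SE 0.14). Both genes fell to well under the wild-type range in each *xpc-1* library. *gst-1* had 219 and 243 CPM in *xpc-1* and 300.4 and 313 CPM in wild-type, a smaller change (log2 fold change -0.39, SE 0.09, adjusted p = 0.0101, edgeR) that no longer passed when *xpc-1* replicate 1 was left out (-0.32). *gst-39* had 56.4 and 61.1 CPM in *xpc-1* and 105 and 114 CPM in wild-type (log2 fold change -0.88, SE 0.09). The reporter gene *gst-4* had 44.8 and 39.1 CPM in *xpc-1* and 88.5 and 76.2 CPM in wild-type (log2 fold change -0.96, SE 0.11, adjusted p = 0.000323, edgeR). In each of these genes the *xpc-1* and wild-type libraries did not overlap.

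Among *gst* genes with at least 5 CPM in *xpc-1* or wild-type, *gst-35* fell most. *gst-35* (chromosome II, 15183801 to 15185385) had 30.6 and 26.8 CPM in *xpc-1*, against 83.8 and 82.8 CPM in wild-type (log2 fold change -1.52, SE 0.10, adjusted p = 3.46e-05, edgeR). *gst-24* had 24.9 and 28.2 CPM in *xpc-1* and 61.0 and 64.5 CPM in wild-type (-1.22 on the log2 scale, SE 0.11). *gst-21* had 5.99 and 6.43 CPM in *xpc-1* and 13.5 and 15.6 CPM in wild-type (-1.21 on the log2 scale, SE 0.16). Each was less than 0.5 of its wild-type level in both *xpc-1* libraries. *gst-26*, at 13.2 and 16.5 CPM in *xpc-1* and 29.0 and 31.1 CPM in wild-type, and *gst-38*, at 14.6 and 17.4 CPM in *xpc-1* and 30.8 and 32.1 CPM in wild-type, fell by 1.00 and by 0.95 on the log2 scale. Below 5 CPM, *gst-44* (-1.41) and *gst-25* (-1.29) also passed as lower. They are named because, among *gst* genes that passed the test, only *gst-35* fell more. The 4-hydroxynonenal-conjugating *gst-10* had 40.5 and 37.1 CPM in *xpc-1* and 65.3 and 58.5 CPM in wild-type (log2 fold change -0.66, SE 0.10, adjusted p = 0.00137, edgeR).

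2 *gst* genes had a log2 fold change above 0, and neither passed the test. *gst-42*, the zeta-class maleylacetoacetate isomerase of tyrosine breakdown, had 19.7 and 19 CPM in *xpc-1* and 17.9 and 14.9 CPM in wild-type (log2 fold change 0.26, SE 0.14, adjusted p = 0.171, edgeR). *gst-20* had 47.7 and 48.5 CPM in *xpc-1* and 43.8 and 49.6 CPM in wild-type (0.06, SE 0.10), with overlapping libraries. For *gst-42* both *xpc-1* libraries were above both wild-type libraries. It is the single *gst* gene with this pattern, and it was listed as a well-studied gene.

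Among omega-class genes *gsto-2* had 3.47 and 4.38 CPM in *xpc-1*, against 10.1 and 11.5 CPM in wild-type (log2 fold change -1.44, SE 0.19). *gsto-1* had 3.94 and 4.74 CPM in *xpc-1* and 9.02 and 9.43 CPM in wild-type (-1.07, SE 0.19). Both fell. *gsto-3*, the highest of the 3, had 17.1 and 20.8 CPM in *xpc-1* and 22.3 and 25.8 CPM in wild-type, and did not pass the test (log2 fold change -0.32, SE 0.14, adjusted p = 0.105, edgeR), although its libraries did not overlap. With upper-quartile scaling *gsto-3* passed as lower (-0.40).

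The *ugt* genes moved in both directions. *ugt-46* (chromosome X, 525929 to 530289), the *ugt* gene with most reads in wild-type, had 56.4 and 57.3 CPM in *xpc-1* and 120.4 and 129 CPM in wild-type (log2 fold change -1.11, SE 0.09, adjusted p = 6.29e-05, edgeR). *ugt-16* had 42.3 and 39.4 CPM in *xpc-1* and 89.1 and 78.8 CPM in wild-type (-1.02, SE 0.10). Both were near 0.5 of wild-type. *ugt-37* had 10.3 and 9.26 CPM in *xpc-1* and 24.2 and 25.6 CPM in wild-type (-1.33, SE 0.13). *ugt-47* had 3.34 and 2.99 CPM in *xpc-1* and 9.35 and 7.40 CPM in wild-type (-1.39, SE 0.21). *ugt-66*, at 5.39 and 3.80 CPM in *xpc-1* and 9.64 and 8.26 CPM in wild-type, and *ugt-39*, at 6.72 and 7.71 CPM in *xpc-1* and 14.6 and 12.9 CPM in wild-type, also fell. The *xpc-1* libraries of these genes did not overlap the wild-type libraries, but *ugt-66* no longer passed without *xpc-1* replicate 2 (-0.71) or without wild-type replicate 1 (-0.86).

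The remaining highly expressed *ugt* genes fell by less. *ugt-13* had 51.8 and 58.6 CPM in *xpc-1* and 97.0 and 101 CPM in wild-type (log2 fold change -0.82, SE 0.10). *ugt-22* had 60.5 and 59.2 CPM in *xpc-1* and 105 and 92.7 CPM in wild-type (-0.70, SE 0.10). *ugt-62* had 69.8 and 72.5 CPM in *xpc-1* and 106 and 93.0 CPM in wild-type (-0.47, SE 0.10). All 3 fell without overlap of the libraries. The most negative *ugt* log2 fold changes belonged to genes of low level, singled out after their values were seen: *ugt-15*, at 1.11 and 0.742 CPM in *xpc-1* and 4.92 and 4.06 CPM in wild-type (-2.25, SE 0.31), and *ugt-10*, at 0.401 and 0.607 CPM in *xpc-1* and 2.20 and 2.48 CPM in wild-type (-2.19, SE 0.40).

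Of the 6 *ugt* genes that rose in *xpc-1*, *ugt-57* was the clearest. *ugt-57* (chromosome X, 6991727 to 6994162) had 65.5 and 70.0 CPM in *xpc-1*, against 30.2 and 31.6 CPM in wild-type (log2 fold change 1.15, SE 0.10, adjusted p = 7.63e-05, edgeR). *ugt-53* had 17.1 and 17.6 CPM in *xpc-1* and 11.0 and 10.9 CPM in wild-type (0.68, SE 0.13). The 2 libraries of a strain were nearly identical for both genes, and both genes passed without any 1 of the 4 libraries. *ugt-4* had 8.99 and 7.42 CPM in *xpc-1* and 5.13 and 4.37 CPM in wild-type (0.81, SE 0.20), and did not pass without *xpc-1* replicate 1 (0.66) or without wild-type replicate 2 (0.68). *ugt-50* had 91.2 and 100.2 CPM in *xpc-1* and 71.9 and 80.6 CPM in wild-type (0.35, SE 0.10), and did not pass without *xpc-1* replicate 2 (0.28) or without wild-type replicate 1 (0.23). The rise of *ugt-49* was the least stable, at 23.1 and 20.7 CPM in *xpc-1* and 18.0 and 12.2 CPM in wild-type (0.56, SE 0.18). *ugt-49* missed the threshold when either *xpc-1* library or wild-type replicate 2 was left out (0.64, 0.48 and 0.29), with upper-quartile scaling (0.48) and by library size only (0.55). *ugt-50* also missed it with upper-quartile scaling (0.26). The sixth was *ugt-14*, named because it completes the count, with 5.61 and 3.24 CPM in *xpc-1* and 2.39 and 1.51 CPM in wild-type (1.20, SE 0.34). It did not pass without *xpc-1* replicate 1 (0.75) or without wild-type replicate 2 (0.89).

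**Figure D2:**
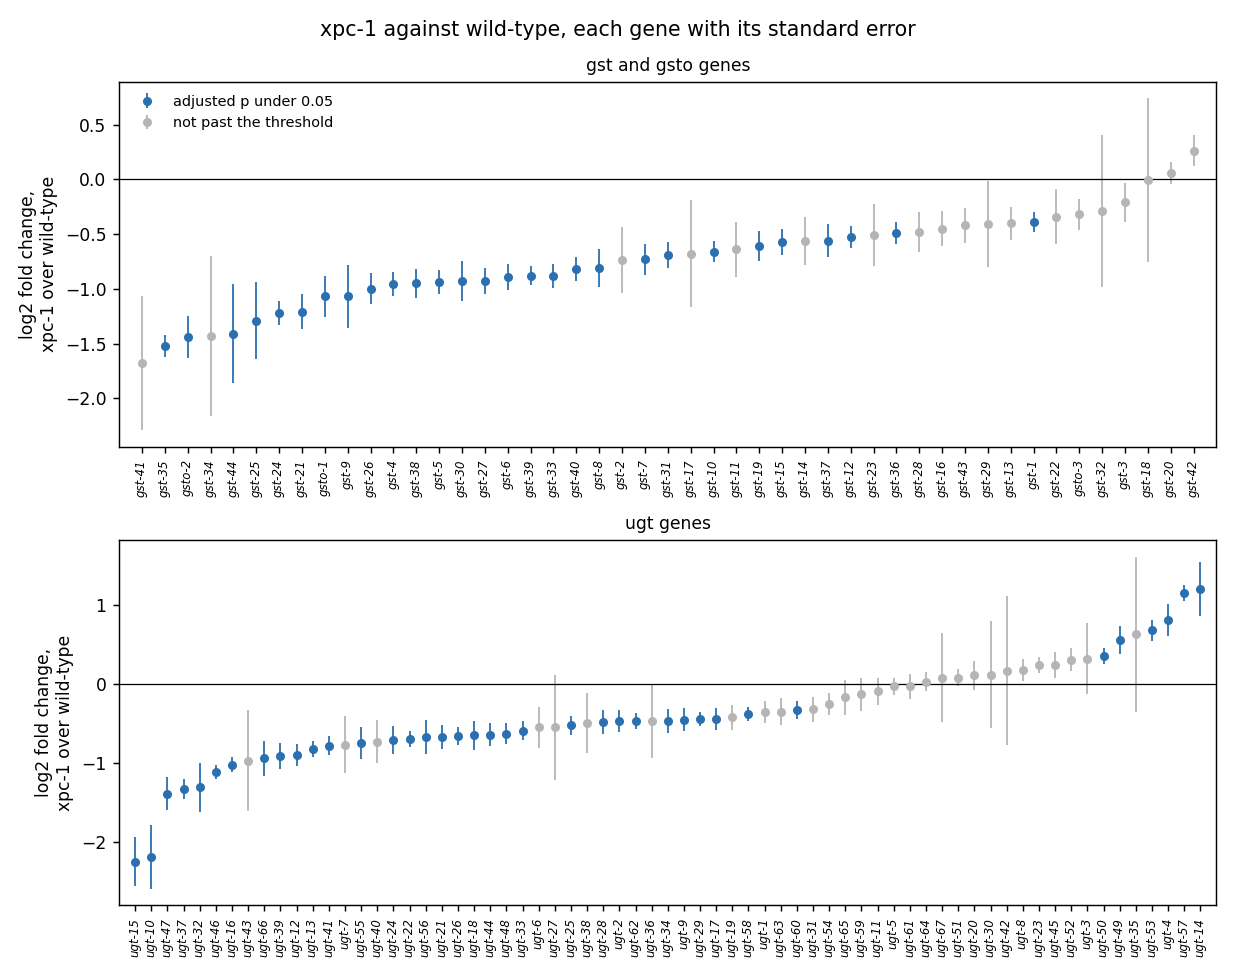
Log2 fold change of *xpc-1* over wild-type (y axis) for each *gst* and *gsto* gene (upper panel) and each *ugt* gene (lower panel), ordered by value. Bars are 1 standard error, derived from the test statistic of the fit of 4 libraries, and blue points passed an adjusted p of 0.05. Of the *gst* genes 26 are blue, all below 0, whereas the *ugt* genes have 32 blue points below and 6 above 0.

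No *gst* gene was called higher, so called genes of a *gst* cluster share a direction by that count alone. In the 2 clusters of 9 *gst* genes on chromosome II, 4 and 5 genes fell, and in the cluster of *gst-6*, *gst-7*, *gst-8* and *gst-9* all 4 fell. All 3 genes of the cluster on chromosome V from 12820265 to 12830109 (*ugt-18*, *ugt-16* and *ugt-15*) fell. In the cluster of *gst-3*, *gst-2* and *gst-4* on chromosome IV only *gst-4* passed the test. The cluster of 8 *ugt* genes was mixed: 4 genes fell and *ugt-14* rose. In the cluster of *ugt-5*, *ugt-4*, *ugt-6* and *ugt-3*, *ugt-4* rose and no gene fell. Over all genes tested 17.1% fell, and with so few genes to a cluster these counts are a description.

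Genes that supply or surround these enzymes moved in both directions in *xpc-1*, and their counts are read against the 20.0% of all genes that rose and the 17.1% that fell. Of 7 genes of glutathione supply, 2 fell and 1 rose: *gcs-1*, the rate-limiting glutamate-cysteine ligase, had 139.5 and 151 CPM in *xpc-1* and 178 and 202 CPM in wild-type (log2 fold change -0.37), *cth-2*, a cystathionine gamma-lyase, had 178 and 197 CPM in *xpc-1* and 326 and 362 CPM in wild-type (-0.86), and *cth-1* rose by 0.39 on the log2 scale. Of 16 other glutathione-using enzymes 4 fell, among them the glutathione peroxidases *gpx-3* (-1.17), *gpx-2* (-0.64) and *gpx-1* (-0.42), and none rose. The UDP-glucose dehydrogenase gene *sqv-4*, which makes UDP-glucuronate, had 65.0 and 70.9 CPM in *xpc-1* and 55.7 and 60.5 CPM in wild-type and did not pass (adjusted p = 0.0737, edgeR). Of 8 *mrp* genes, which encode ABC exporters of conjugates, 3 fell (*mrp-2* at -1.09, *mrp-1* at -0.50 and *mrp-7* at -0.46) and 2 rose (*mrp-4* at 0.47 and *mrp-5* at 0.41).

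Transcripts of 13 regulators of detoxification genes gave 4 falls and no rise, with 17.1% of all genes falling and 20.0% rising. *skn-1* had 289.7 and 307 CPM in *xpc-1* and 346 and 357 CPM in wild-type, and did not pass the test (log2 fold change -0.22, adjusted p = 0.0814, edgeR). *wdr-23*, which represses SKN-1 protein, had 162 and 176 CPM in *xpc-1* and 244 and 258 CPM in wild-type (-0.55). *pqm-1*, a zinc finger factor, had 31.8 and 32.1 CPM in *xpc-1* and 58.1 and 65.5 CPM in wild-type (-0.93). The other falls were *daf-16*, the FOXO factor of insulin signalling (-0.35), and *xrep-4*, an F-box gene required for SKN-1 activation (-0.25).

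Markers of tissue and stage moved with the same contrast, where 20.0% of all genes rose and 17.1% fell. With so few genes to a list, the counts are a description. Of 8 intestinal markers 5 fell in *xpc-1* and none rose, and their summed level was 1813 and 2062 CPM in *xpc-1* and 3206 and 3884 CPM in wild-type. The protease gene *asp-1*, at 967 and 1129.5 CPM in *xpc-1* and 1983 and 2506 CPM in wild-type, made up most of it, while the intestinal GATA factor *elt-2* had 27.2 and 26.1 CPM in *xpc-1* and 25.2 and 24.9 CPM in wild-type. Germline markers rose in 4 of 4 genes (97.8 and 99.8 summed CPM in *xpc-1*, 51.2 and 44.9 in wild-type). Embryonic markers rose in 4 of 6 genes tested, among them *mex-5* at 75.9 and 82.4 CPM in *xpc-1* and 23.2 and 21.9 CPM in wild-type. The 7 yolk and adult markers stayed at 7.17 and 8.52 summed CPM in *xpc-1* and 7.56 and 7.84 in wild-type. Muscle markers fell in 3 of 4 genes, 2 of 3 pharynx markers fell and 1 rose, 2 of 5 epidermal markers rose and 2 fell, 2 of 4 neuronal markers fell and 1 rose, and of 3 early larval markers 1 rose and 1 fell. The part of tissue makeup or age of the larvae in the transferase differences was not tested.

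In *csb-1* no single transferase gene passed the test. edgeR on the 2 *csb-1* and 2 wild-type libraries called 0% of 17730 genes (0 genes, with 507 at an unadjusted p under 0.05, among them 12 *gst* and 4 *ugt* genes). DESeq2 called 1 gene higher and 68 lower, including *gst-33* (log2 fold change -2.86, adjusted p = 0.00585), *gst-8* (-2.63, adjusted p = 0.0143) and *gst-5* (-1.97, adjusted p = 0.0420). The count filter kept 113 of the 114 genes and dropped *ugt-35*. The *csb-1* and *xpc-1* comparisons share the wild-type libraries, so their values are set side by side without a test of likeness. The median log2 fold change in *csb-1* was -1.11 for *gst* genes, 0.00 for *ugt* genes and -1.22 for *gsto* genes, against 0.15 over all genes tested. Scaled by library size only, these medians were -1.50, -0.38 and -1.32, against -0.09 over all genes.

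Many *gst* genes were nevertheless low in both *csb-1* libraries. Both libraries were below both wild-type libraries for 26 of 44 *gst* genes (59.1%), 20 of 67 *ugt* genes (29.9%) and 2 of 3 *gsto* genes, where the share over all genes was 19.4%. In TPM these counts were 35, 32 and 2, where the share over all genes was 27.1%. In CPM both were above for *gst-42*, *ugt-23*, *ugt-53* and *ugt-57*, and 13.6% of all genes had this pattern. By library size only, 4 of the 114 genes were above, where the share over all genes was 4.42%. In TPM 7 were above, without *ugt-53* and *ugt-57*, where the share over all genes was 3.10%. In CPM, 17 *gst* genes, 5 *ugt* genes and *gsto-2* were lower with a gap of at least 2-fold between the nearest libraries. The share over all genes was 5.34%. On the upper side none of the 114 had such a gap, where the share over all genes was 0.389%.

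The widest gaps were all in *gst* genes. *gst-33* (chromosome V, 3467453 to 3468545) had 9 and 5.11 CPM in *csb-1*, against 30.2 and 27.3 CPM in *xpc-1* and 56.7 and 50.9 CPM in wild-type, a gap of 5.65-fold between the nearest *csb-1* and wild-type libraries. *gst-8* had 1.86 and 1.32 CPM in *csb-1* and 10.7 and 9.92 CPM in wild-type (5.34-fold). *gst-5* had 156 and 164 CPM in *csb-1* and 629.8 and 682 CPM in wild-type (3.84-fold). For *gst-5* the *csb-1* replicates were close in CPM but not in TPM, at 337 and 164. *gst-31* had 7.43 and 4.88 CPM in *csb-1* and 28.9 and 27.2 CPM in wild-type (3.66-fold). *gst-21* had 2.58 and 3.79 CPM in *csb-1* and 13.5 and 15.6 CPM in wild-type (3.57-fold). These 5 genes also fell in *xpc-1*, where 26 of the 44 *gst* genes fell, and both comparisons use the same wild-type libraries.

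The other well-known *gst* genes varied. *gst-4* had 24.6 and 30.7 CPM in *csb-1* and 88.5 and 76.2 CPM in wild-type (log2 fold change -1.57, SE 0.31). *gst-1* had 140.1 and 221 CPM in *csb-1* and 300.4 and 313 CPM in wild-type (-0.76, SE 0.39). Both *csb-1* libraries were below wild-type for each. *gst-10* had 26.8 and 62.0 CPM in *csb-1*, which overlapped the 65.3 and 58.5 CPM in wild-type. In TPM both *csb-1* libraries were below wild-type for *gst-10*, at 56.5 and 60.6 against 116 and 104. *gst-42* had 19.7 and 46.0 CPM in *csb-1* and 17.9 and 14.9 CPM in wild-type. In CPM 1 *csb-1* library was thus little above wild-type and the other far above. In TPM the *csb-1* libraries of *gst-42* were close, at 32.0 and 34.6, against 24.6 and 20.3 in wild-type. *ugt-57* had 84.9 and 46.8 CPM in *csb-1*, both above the 30.2 and 31.6 CPM in wild-type (1.10, SE 0.42). In TPM the *csb-1* libraries of *ugt-57* enclosed wild-type, at 71.4 and 18.2 against 21.4 and 22.3.

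The *csb-1* replicates disagreed on many transferase genes, as they did on genes in general. In CPM they were more than 2-fold apart for 77 of the 114 genes, 26 *gst*, 48 *ugt* and 3 *gsto*, where the share over all genes was 55.5%. In *xpc-1* 5 of the 114 genes were this far apart (7.32% of all genes) and in wild-type 2 were (6.88% of all genes). Replicate 2 was the higher *csb-1* library for 21 of the 26 *gst* genes and 40 of the 48 *ugt* genes. The median log2 ratio of replicate 1 over replicate 2 in *csb-1* was -0.87 for *gst* genes and -1.31 for *ugt* genes, against 0.09 over all genes. The size and, for *gst* genes, the sign depended on the scale: by library size only these medians were -0.36 and -0.72, against 0.62 over all genes, and in TPM they were 0.08 and -0.20, against 1.12 over all genes. In TPM 63 of the 114 genes were more than 2-fold apart, where the share over all genes was 66.5%.

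The widest splits reached more than 10-fold. *gst-27* (chromosome II, 15164890 to 15165731) had 2.69 and 174 CPM in *csb-1*, against 53.8 and 58.8 CPM in wild-type. Its neighbour *gst-26* had 2.69 and 91.4 CPM in *csb-1* and 29.0 and 31.1 CPM in wild-type. *gst-28*, in the same cluster, had 2.71 and 36.6 CPM in *csb-1* and 7.09 and 7.82 CPM in wild-type. For these 3 adjacent genes replicate 1 was far below and replicate 2 above wild-type. Yet *gst-35*, at the far end of that cluster, split the other way, with 37.0 and 4.36 CPM in *csb-1* and 83.8 and 82.8 CPM in wild-type. Across this cluster the log2 ratio of *csb-1* replicate 1 over replicate 2 ranged between -5.96 and 3.06. *gst-24*, in another cluster, had 7.30 and 97.5 CPM in *csb-1* and 61.0 and 64.5 CPM in wild-type. *gst-41* had 0.128 and 6.83 CPM in *csb-1*, from 6 and 238 reads, and 0.964 and 1.01 CPM in wild-type.

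Among *ugt* genes, *ugt-22* (chromosome IV, 13639260 to 13644402) had 21.3 and 385 CPM in *csb-1*, against 105 and 92.7 CPM in wild-type. At 18.1% of the family's summed CPM, *ugt-22* was the highest *ugt* gene of *csb-1* replicate 2. *ugt-44* had 3.58 and 67.9 CPM in *csb-1* and 13.9 and 14.1 CPM in wild-type. *ugt-8* had 2.05 and 40.4 CPM in *csb-1* and 10.8 and 10.6 CPM in wild-type. *ugt-41* had 1.75 and 40.0 CPM in *csb-1* and 21.4 and 20.7 CPM in wild-type, and *ugt-47* had 0.555 and 15.3 CPM in *csb-1* and 9.35 and 7.40 CPM in wild-type. In all 5 genes the *csb-1* libraries enclosed the wild-type libraries in CPM. In TPM those of *ugt-47* did not, at 0.547 and 7.01 in *csb-1* and 7.8 and 6.14 in wild-type. For *ugt-41*, *csb-1* replicate 2 was at 16.9 TPM, barely above the 16.5 and 15.9 TPM in wild-type. The *csb-1* libraries of the omega-class gene *gsto-1* also enclosed wild-type, with 1.34 and 30.3 CPM in *csb-1* and 9.02 and 9.43 CPM in wild-type. *gsto-2* instead had 3.84 and 0.689 CPM in *csb-1* and 10.1 and 11.5 CPM in wild-type.

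**Figure D3:**
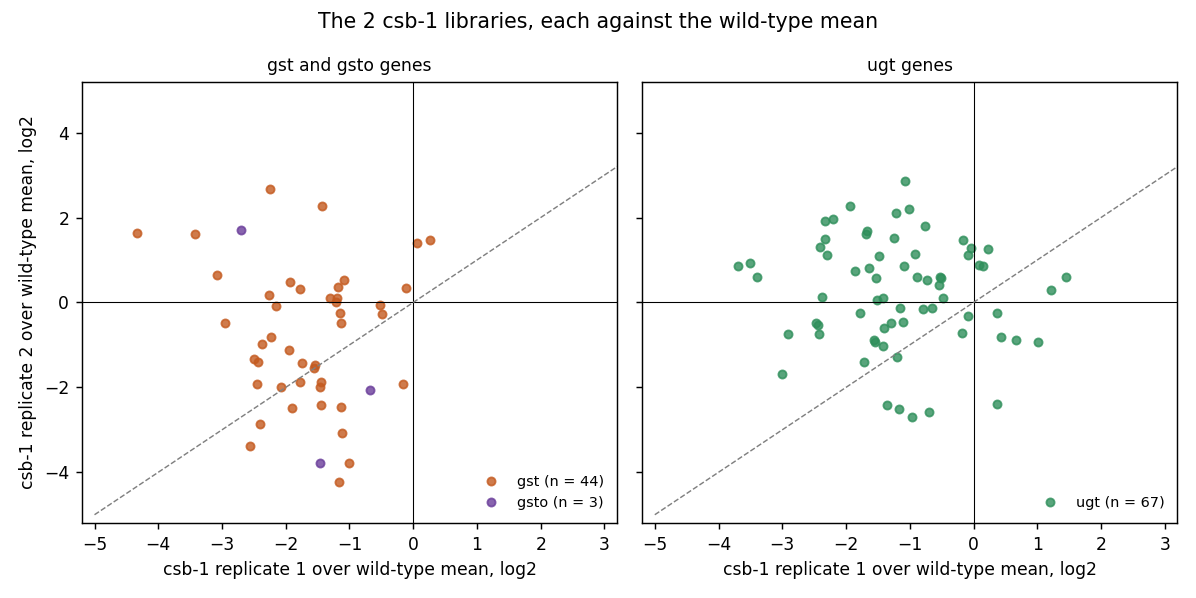
Log2 ratio of *csb-1* replicate 1 (x axis) and *csb-1* replicate 2 (y axis) to the wild-type mean, after adding 0.1 CPM, 1 point for each *gst* and *gsto* gene (left) and *ugt* gene (right). The dashed line marks equal ratios. Most points lie left of 0, whereas in replicate 2 the *ugt* genes spread to both sides, and the 2 *csb-1* libraries differed by more than 2-fold for 77 of the 114 genes.

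Each *csb-1* library was also set against both wild-type libraries alone, in a fit that assumes the lone library varies as wild-type does. These calls describe 1 library and not the strain. In replicate 1, 36 *gst* genes were lower and none higher, 44 *ugt* genes were lower and 6 higher, and 3 *gsto* genes were lower, where the shares over all genes were 28.3% lower and 27.5% higher. In replicate 2, 22 *gst* genes were lower and 9 higher, 16 *ugt* genes lower and 31 higher, and 2 *gsto* genes lower and 1 higher, where the shares over all genes were 29.6% lower and 24.3% higher. By library size only, the *ugt* calls of replicate 2 turned to 26 lower and 16 higher, and all genes shifted the same way, to 47.5% lower and 10.2% higher. Lower in each library were 21 *gst*, 11 *ugt* and 2 *gsto* genes, where the share over all genes was 7.28%, and of the 114 genes *ugt-57* alone was higher in each, where it was 3.10%. Lower in replicate 1 and higher in replicate 2 were 7 *gst*, 21 *ugt* and 1 *gsto* gene (11.2% of all genes), and 3 *ugt* genes were the reverse (12.8% of all genes). Both sets of calls use the same wild-type libraries. In TPM, *ugt-57* in *csb-1* replicate 2 was below wild-type, at 18.2 against 21.4 and 22.3.

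Intestinal markers split the same *csb-1* libraries. Their summed level was 1015 and 15318 CPM in *csb-1*, against 3206 and 3884 CPM in wild-type, with *asp-1* at 360 and 10131 CPM and the protease gene *cpr-1* at 3.93 and 884 CPM in *csb-1*. The GATA factor *elt-2* was alike in the *csb-1* libraries, at 28.6 and 28.7 CPM. Pharynx markers summed to 744 and 4574 CPM in *csb-1*, against 1561 and 1710 CPM in wild-type. Muscle markers summed to 3533 and 6771 CPM in *csb-1*, against 6952 and 7869 CPM in wild-type, and epidermal markers to 616 and 138 CPM in *csb-1*, against 299 and 313 CPM in wild-type. The muscle sum split by *unc-54* and *unc-15*, whereas *myo-3*, at 1062 and 738 CPM, and *hlh-1*, at 34.9 and 20.2 CPM, were higher in *csb-1* replicate 1. The pharynx sum rests on the myosins *myo-1* and *myo-2*, whereas the pharyngeal factor *pha-4* was higher in *csb-1* replicate 1, at 215 CPM, than in replicate 2. Replicate 2 thus had the higher sums of intestinal and pharyngeal markers and replicate 1 the higher epidermal sum, with *elt-2*, *pha-4* and the intestinal factor *elt-7*, at 14.4 and 11.2 CPM in *csb-1*, as exceptions.

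Some stage markers split as well. Of the 3 early larval factors, *hbl-1* had 1285 and 60.4 CPM in *csb-1* and 415 and 426 CPM in wild-type, while *lin-14*, at 287 and 237 CPM, and *lin-28*, at 183 and 158 CPM, were close in the *csb-1* libraries. The embryonic gene *pie-1* had 19.8 and 1.49 CPM in *csb-1* and 3.57 and 3.59 CPM in wild-type, and *pes-10* and the germline gene *nos-2* had no read in *csb-1* replicate 2. Germline markers summed to 138 and 64.3 CPM in *csb-1*, against 51.2 and 44.9 CPM in wild-type, and neuronal markers to 437 and 475 CPM in *csb-1*, against 551 and 572 CPM in wild-type. Yolk and adult markers summed to 7.60 and 1.43 CPM in *csb-1* and 7.56 and 7.84 CPM in wild-type. The part of these differences in the transferase values of the *csb-1* libraries was not tested.

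Some related genes, given as examples, lay on 1 side of wild-type in both *csb-1* libraries. Over all genes 19.4% were below in this way and 13.6% above, and the genes of these lists were not counted. Others overlapped wild-type, such as *gsr-1* at 123 and 159 CPM in *csb-1* and 128 and 149 CPM in wild-type. Among glutathione supply genes, *gcs-1* had 153 and 123 CPM in *csb-1* and 178 and 202 CPM in wild-type, and *cth-2* had 118 and 144 CPM in *csb-1* and 326 and 362 CPM in wild-type. Both were below wild-type in each *csb-1* library. The SKN-1 gene itself, *skn-1*, had 315 and 334 CPM in *csb-1* and 346 and 357 CPM in wild-type. The exporter gene *mrp-2* had 49.8 and 141 CPM in *csb-1* and 253 and 265 CPM in wild-type, and *mrp-4* had 59.3 and 95.3 CPM in *csb-1* and 33.2 and 35.6 CPM in wild-type. None of the 7 glutathione supply, 16 glutathione-using, 8 *mrp* or 13 regulator genes, nor *sqv-4*, passed the edgeR test in *csb-1*.

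**Figure D4:**
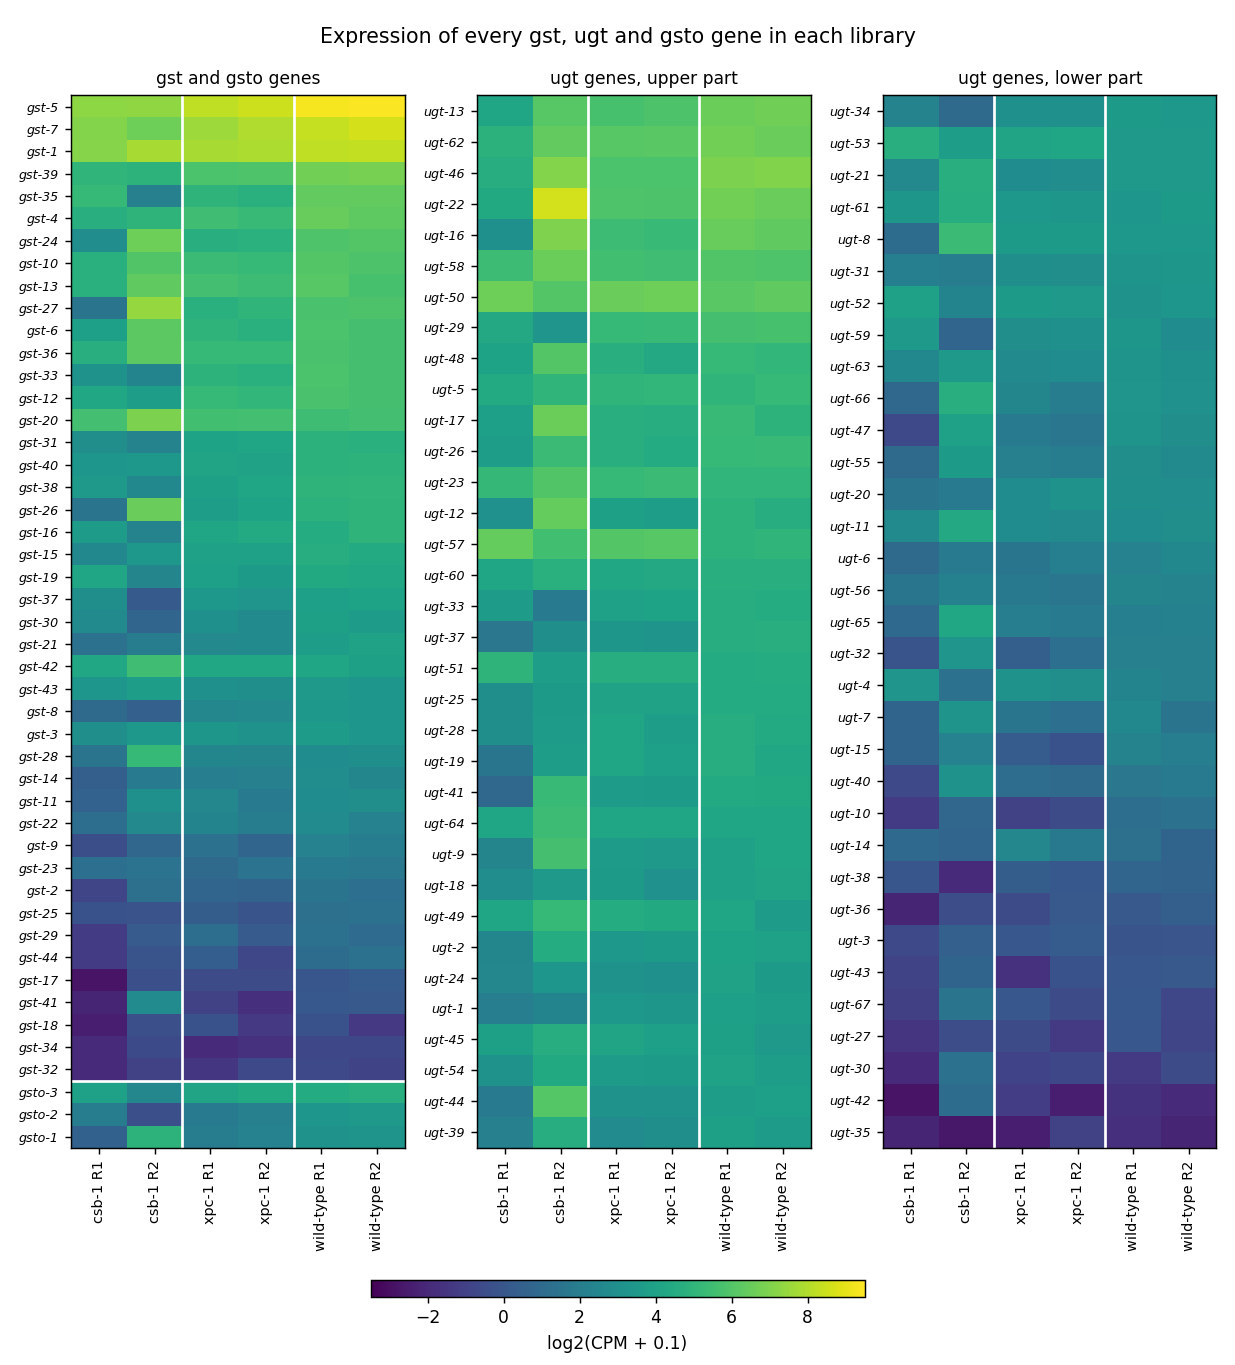
Expression of the 114 genes in each library as colour, log2(CPM + 0.1), with columns for the 2 libraries of *csb-1*, *xpc-1* and wild-type and genes in order of wild-type TPM within families. The *xpc-1* and wild-type pairs look alike within a strain, whereas the *csb-1* columns differ, as for *gst-27* at 2.69 and 174 CPM.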

How the data were processed

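RNA-seq counts of L1 larvae, 2 libraries for each of 3 strains, were analysed. The authors aligned the reads with STAR (version not given in the sources used here), kept proper pairs with high mapping quality, and counted them with featureCounts 2.0.4. The deposited values are raw counts of reads per gene on WBcel235, with exon lengths from Ensembl release 105 per the file headers, whereas the methods name WormBase WS295. No strand option was set and both mates were counted, so 1 fragment usually added 2 to a gene's value, and between 62.6% and 76.3% of low counts were even. Symbols matched 44017 of 46904 identifiers. Gene types came from Ensembl release 115.

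CPM used TMM factors from all 6 libraries, and TPM used exon lengths. edgeR 4.0.16 (quasi-likelihood, R 4.3.3) compared each mutant strain with wild-type in a fit of 4 libraries, on genes with at least 10 counts in 2 libraries, with Benjamini-Hochberg adjustment over all genes tested and a threshold of 0.05. The SE of an edgeR fold change was its absolute log2 value divided by the square root of the quasi-likelihood F statistic. A gene counted as expressed with at least 1 CPM in both libraries. The fit of 4 libraries was preferred to that of 6 knowing how many genes each called, because the *csb-1* libraries had another spread. The members and lists were chosen with earlier results of these data known. No 2 libraries were alike within counting error (chi-square per degree of freedom at least 33.8).

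Named genes were the 5 *gst* and 5 *ugt* genes highest in wild-type TPM, each *gsto* gene, and 5 well-studied *gst* genes. For *xpc-1* they were up to 6 called *gst* and 6 called *ugt* genes in each direction with the largest fold change, at 5 CPM or more and without overlap of libraries. For *csb-1* they were the 5 *gst* and 5 *ugt* genes with the widest replicate ratio and up to 5 genes in each direction with the widest gap to wild-type of at least 2-fold. Some genes beyond this rule are said to be so, and others complete an order, a count or a cluster, such as *gst-13*, *gst-20*, *ugt-18* and *ugt-23*. The edgeR fit was tested on simulated data with a spread near that of the *xpc-1* fit (biological coefficient of variation 0.145). The planted changes were larger than most of those reported for *xpc-1* and lay in genes with many reads. The simulation thus does not speak for smaller changes or for genes with few reads. That of the *csb-1* fit was 0.726, so the simulation does not speak for the *csb-1* fit. Alternatives were DESeq2 1.42.0, other scalings, filters and expression minimums, halved counts, a replicate block, all 6 libraries in 1 fit, and each library left out. Calls for each *csb-1* library alone and *csb-1* replicate ratios under other scalings, and for genes without an overlapping gene, were added after seeing the data. Protein and promoter sequences were not used here. Python 3.11.15 with pandas 2.3.3 and matplotlib 3.10.9 was used.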

Additional observations from a re-analysis of the deposited data

How the results depend on the processing

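For *xpc-1*, all 6 libraries in 1 fit left 0 calls in every family and over all genes. Of the 66 transferase genes called, 63 were called in the same direction with DESeq2, 64 with upper-quartile factors, 64 by library size only, 65 without a filter, and 66 with a stricter filter, halved counts or a replicate block, and none changed sign. Upper-quartile factors moved the median of all genes to -0.10. When a library was left out, between 47 and 55 were kept, and 43 in every case. The counts then ranged from 22 to 27 *gst* lower, 20 to 26 *ugt* lower, 3 to 5 *ugt* higher and 2 to 2 *gsto* lower, and over all genes from 2470 to 2746 higher and from 1966 to 2294 lower. Without *xpc-1* replicate 1 or without wild-type replicate 2, 3 *ugt* genes were higher. Without *xpc-1* replicate 2, 20 *ugt* genes were lower, and 21 without wild-type replicate 1. Without overlapping genes, 1 *gsto* gene remained, which was lower.

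For *csb-1*, DESeq2 called 1 gene higher and 68 lower, 3 of them *gst*. Leaving out libraries gave ranges of 0 to 4797 higher and 0 to 5117 lower over all genes, 0 to 9 *gst* higher and 0 to 36 lower, 0 to 31 *ugt* higher and 0 to 44 lower, and 0 to 1 *gsto* higher and 0 to 3 lower. All calls appeared without *csb-1* replicate 1 or 2, and none without a wild-type library. For *csb-1* replicate 2 alone, library size scaling gave 16 *ugt* higher and 26 lower, with 10.2% of all genes higher and 47.5% lower.

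The summed ratio to wild-type without 1 library ranged from 0.345 to 0.632 (*gst*), 0.522 to 1.46 (*ugt*) and 0.458 to 0.831 (*gsto*) in *csb-1*, and from 0.569 to 0.617, 0.745 to 0.775 and 0.557 to 0.681 in *xpc-1*. The *csb-1* *ugt* ratio of 0.990 turned to 1.46 without *csb-1* replicate 1 and to 1.01 without wild-type replicate 1. In TPM the *xpc-1* ratios were 0.632 (*gst*) and 0.812 (*ugt*), and the *csb-1* ratios were 0.375 (*gst*) and 0.707 (*ugt*), or 0.392 and 0.764 by library size only. Without *gsto-3* the *gsto* ratio was 0.413 in *xpc-1* and 0.903 in *csb-1*. At 5 CPM, 54 genes were expressed in *csb-1*. With 1 library the expressed genes ranged from 91 to 103 in *csb-1*, 97 to 100 in *xpc-1* and 102 to 104 in wild-type. Apart from these values, the cause of which was not tested, the other settings tried changed no family count by over 1.5 times and no sum by over 1 SD of the ratios between libraries, which is wide in *csb-1*.

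Replicate numbers were not taken as pairs: same-numbered libraries deviated together with correlations of 0.0174 (*csb-1* and *xpc-1*), -0.00363 (*csb-1* and wild-type) and 0.26 (*xpc-1* and wild-type), and the labels state no pairing. With the replicate block, 33 *gst*, 37 *ugt* and 3 *gsto* genes were lower and 7 *ugt* genes higher in *xpc-1*. The block raised the calls over all 17924 genes tested as well, to 4160 lower and 4689 higher, from 3062 and 3590 without it. In *csb-1* 0 genes passed with the block. With 2 libraries per strain, a miss does not show equal levels, and genes with few reads, such as *ugt-35*, had wide errors (log2 fold change 0.63, SE 0.98 in *xpc-1*).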
